A study of Rattus with 6 samples.

Results

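The 36 genes described here are a list of mitosis and G2/M genes, whose products drive or carry out cell division, in H9C2 cells. H9C2 is a cell line of myoblast character derived from embryonic rat heart. All 36 were found by their symbol among the 20742 genes of the deposited count table, and all 36 had enough reads to be among the 12882 genes tested. Polyadenylated RNA was sequenced from 3 libraries of cells given a control plasmid and 3 libraries of cells with RBM25 overexpression; both groups are the same cell line, and RBM25 is an RNA-binding protein that takes part in the choice of splice sites. The labels name no time after transfection, promoter, culture or clone. The p-values therefore reflect how far these 6 libraries scatter, and that scatter could be technical.

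Most of these genes are silent or low early in the cell cycle and are switched on together late in it. Transcription factors such as FOXM1 and B-MYB act on their promoters, and the DREAM complex holds the same genes down in resting cells. Cyclin A2 and the B-type cyclins activate the kinase CDK1, which opens mitosis. The kinetochore then ties chromosomes to the spindle, the spindle checkpoint delays anaphase until all are attached, and the anaphase-promoting complex (APC/C) marks securin and the cyclins for destruction. In a bulk sample, a lower level of such a gene can come from fewer cells in the late cell cycle or from less of its RNA in each cell, and the 2 cannot be told apart.

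Libraries held 25543849 to 33130256 counted reads, and replicates of a typical gene varied by 3.91% (edgeR's common biological coefficient of variation). Rbm25 itself was at 49.2, 44.5 and 45.7 CPM (reads scaled to a common library size with TMM factors) in control libraries 1, 2 and 3 and at 56.3, 55.9 and 60.1 CPM in RBM25 libraries 1, 2 and 3. The groups did not overlap (log2 fold change 0.30 ± 0.047 SE, edgeR adjusted p = 0.0011). The similar gene Rbm25l1, with which reads can be shared in counting, was at 0.0393, 0.0348 and 0.0970 CPM in the controls and at 4.46, 3.60 and 3.76 CPM in the RBM25 libraries. Of 10 myoblast and muscle markers listed, 9 matched a row, the exception being Myf5, and 8 had enough reads to be tested. Cdh15, encoding M-cadherin, was at 209 to 235 CPM over the 6 libraries and the myogenic factor Myod1 at 54.6 to 68.4 CPM. Of the leukocyte markers listed, 4 of 8 matched a row and their summed level was 5.79 to 7.39 CPM.

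The division genes were well expressed in both groups. Together they took 0.310 ± 0.0103% of control reads (SD, n = 3) and 0.309 ± 0.0224% of RBM25 reads (SD, n = 3). On the FPKM scale, which divides by gene length and so allows levels of different genes to be set side by side, the mean over 6 libraries ran from 2.13 for Cdc25c to 137 for Cdk1, with a median over the 36 genes of 18.8. A mean above 10 FPKM was reached by 28 of the 36 and by 36.8% of all tested genes. Next to Cdk1, the most abundant were Ube2c, the E2 enzyme that works with the APC/C (120 FPKM), Bub3, a checkpoint protein that binds kinetochores (98.8 FPKM), and Plk1, a master kinase of mitosis (73.5 FPKM). The least abundant after Cdc25c were the long kinetochore genes Cenpe (3.19 FPKM) and Cenpf (4.84 FPKM). The reads behind 1 gene in 1 library numbered from 353 for Cdc25c to 8887 for Mki67. Counting alone therefore gives a coefficient of variation of at most 5.32% for any member in any library.

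None of the 36 genes passed the test of RBM25 against control (adjusted p under 0.05), where 52 of 12882 genes, or 0.404%, passed. At an unadjusted p under 0.05 there were 5 members, 3 higher and 2 lower, against 11.2% of all genes. DESeq2 also called 0 members, and 0.435% of all genes. At an unadjusted p under 0.05 it had 4 members and 7.09% of all genes. The fitted log2 fold changes ran from -0.11 for Bub1b to 0.20 for Ttk. Their median was -0.0077, beside -0.0021 over all tested genes, and 16 members had a positive and 20 a negative value. The 95% intervals reached no lower than -0.31, for Ube2c, and no higher than 0.32, for Ttk. In each of 2 members all RBM25 values lay above all control values (Ttk and Cenpe, with 8.31% of all genes doing so), and in 2 all lay below (Bub1b and Cdc20, with 7.94% of all genes).

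The members shared a pattern across single libraries. Levels in RBM25 library 3 were the lowest of the 6 libraries for 30 of 36 genes, whereas 20.0% of all tested genes had their lowest level there. The mean over the 36 genes of log2 CPM, relative to the control mean, was 0.060, -0.021 and -0.039 in control libraries 1, 2 and 3, and 0.089, 0.029 and -0.13 in RBM25 libraries 1, 2 and 3. Over all tested genes the same means lay between -0.0034 and 0.019. By this mean, RBM25 libraries 1 and 2 thus stood above the control mean and library 3 below it, and the groups overlapped. RBM25 library 2 was the less even of the first 2: 23 of 36 genes were above their control mean there and 13 below. Its mean was under that of control library 1.

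**Figure D1:**
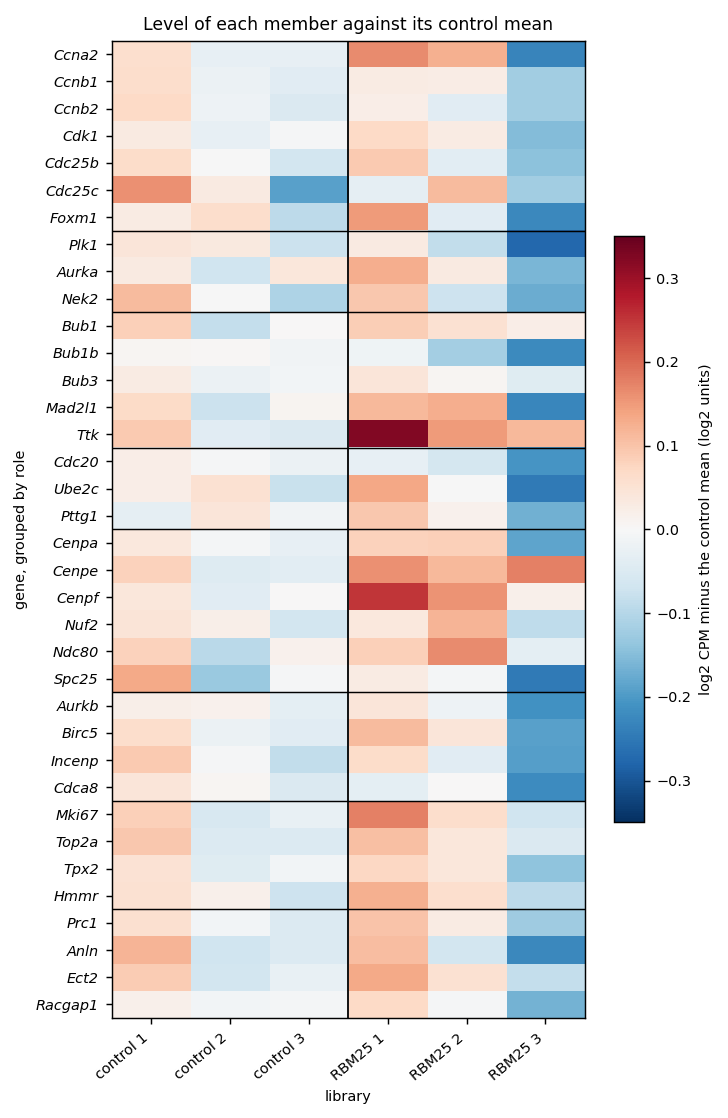
Colour gives log2 CPM of each of the 36 genes (rows, grouped by role, lines between roles) in each of 6 libraries (columns) minus the gene's control mean. The RBM25 3 column is blue for 32 of 36 genes, the RBM25 1 column is red for 32 of 36, and control 1 is red for 35 of 36. The RBM25 2 column is red for 23 of 36.

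Of the mitotic cyclins and CDK1, Ccna2 showed this pattern most clearly, while Ccnb2 was below its control mean in RBM25 library 2 as well. Ccna2, encoding cyclin A2, which acts from S phase into early mitosis, was at 60.5, 56.9 and 57.0 CPM in control libraries 1, 2 and 3, and at 65.2, 63.4 and 49.5 CPM in the RBM25 libraries 1, 2 and 3. RBM25 libraries 1 and 2 lay above all controls and library 3 below all of them. The fitted log2 fold change was therefore near zero with a wide interval (0.036, 95% interval -0.24 to 0.31; edgeR adjusted p = 0.941). Cdk1 gave 200, 192 and 195 CPM in the controls, with 205, 199 and 176 CPM under RBM25 (-0.014, interval -0.11 to 0.085). RBM25 library 3 again lay below the other 5 libraries. For Ccnb1, encoding cyclin B1, the main partner of CDK1 at mitotic entry, the control values were 156, 147 and 145 CPM and the RBM25 values 153, 152 and 137 CPM (-0.019, interval -0.10 to 0.062). Its relative Ccnb2 had 89.9, 84.5 and 82.6 CPM against 86.9, 83.3 and 78.6 CPM, with the smallest p of this role (-0.044, interval -0.13 to 0.041; edgeR adjusted p = 0.744). The phosphatases that activate CDK1 and the factor FOXM1 went the same way: in RBM25 library 3, Cdc25b stood 11.2%, Cdc25c 10.5% and Foxm1 17.6% below the mean of RBM25 libraries 1 and 2. All 7 genes of this role were lowest in library 3 among the RBM25 libraries.

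Of the mitotic kinases Plk1, Aurka and Nek2, Plk1 had the largest fitted difference between groups. It stood at 186, 185 and 172 CPM in control libraries 1, 2 and 3 and at 185, 170 and 149 CPM in RBM25 libraries 1, 2 and 3. RBM25 library 1 lay inside the control range, library 2 just under it and library 3 well under it. Its log2 fold change was -0.10 (interval -0.31 to 0.098; edgeR adjusted p = 0.711). Aurka, encoding the spindle pole kinase Aurora A, had 48.8, 45.4 and 49.0 CPM in controls and 52.1, 48.7 and 42.7 CPM with RBM25. Nek2, a centrosome kinase, had 43.3, 40.1 and 37.2 CPM in controls, then 42.8, 38.1 and 35.6 CPM with RBM25. In both genes RBM25 library 3 was the lowest of all 6, and neither passed the test (adjusted p = 0.981 and 0.854, edgeR).

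**Figure D2:**
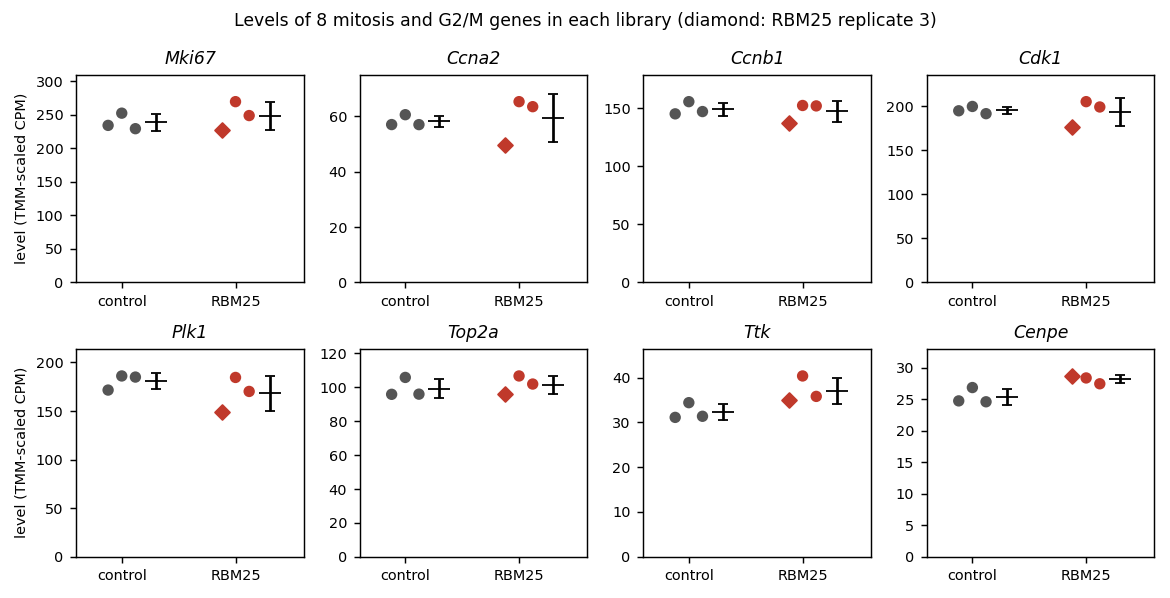
TMM-scaled CPM (vertical axes, from 0) of 8 genes in the 3 control libraries (grey) and the 3 RBM25 libraries (red, with RBM25 library 3 as a diamond); bars give the mean ± SD of each group. The diamond is the lowest RBM25 point in 7 of the 8 panels and the highest in that of Cenpe, where the 3 RBM25 values of 27.4 to 28.7 CPM all exceed the control values.

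The spindle checkpoint genes were split. Ttk, encoding the kinase MPS1 that sets the checkpoint going, had the smallest p of all 36. It was at 34.4, 31.3 and 31.1 CPM in control libraries 1, 2 and 3 and at 40.3, 35.8 and 34.9 CPM in RBM25 libraries 1, 2 and 3. The groups did not overlap, with 0.527 CPM between control 1 and RBM25 library 3. Its log2 fold change of 0.20 ± 0.059 (SE; 95% interval 0.081 to 0.32) did not pass (edgeR adjusted p = 0.133). With no filter on low counts Ttk was the 1 member called (adjusted p = 0.026), where 0.988% of all genes were. Bub1b, encoding the checkpoint protein BUBR1, went the other way, with 56.9, 56.8 and 56.2 CPM in controls and 56.0, 52.2 and 48.5 CPM with RBM25. No RBM25 value reached the control range, but library 1 missed it by 0.170 CPM (-0.11 ± 0.047 SE, adjusted p = 0.338). The controls agreed closely for this gene, so most of the distance came from RBM25 libraries 2 and 3. Bub1, a kinetochore kinase, had 47.6, 42.4 and 44.9 CPM in controls and 47.7, 46.7 and 45.6 CPM with RBM25. RBM25 library 3 was 3.19% under the mean of the other RBM25 libraries for this gene. Bub3 differed by 4.59% there, and Mad2l1, encoding the core checkpoint protein MAD2, by 21.4%.

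Genes of anaphase onset all had negative fold changes, from -0.095 for Cdc20 to -0.014 for Pttg1. Cdc20, the activator that brings substrates to the APC/C, was at 97.8, 96.0 and 94.8 CPM in the controls and at 94.3, 92.2 and 83.4 CPM with RBM25. The groups did not overlap, with 0.489 CPM between control 3 and RBM25 1 (-0.095 ± 0.040 SE, edgeR adjusted p = 0.363). Ube2c had 102, 104 and 94.9 CPM in controls, then 110, 100 and 84.4 CPM with RBM25, so the RBM25 values lay on both sides of the control range. Pttg1, encoding securin, the inhibitor of the protease that parts sister chromatids, gave 47.7, 50.1 and 48.3 CPM against 51.9, 49.2 and 43.3 CPM.

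Kinetochore genes had positive fold changes in 5 of 6 members (median log2 fold change 0.051), and 2 of them were the next after Ttk by p. Cenpf, encoding a large protein of the outer kinetochore, had 53.7, 50.8 and 52.3 CPM in control libraries 1, 2 and 3 and 62.1, 58.3 and 52.9 CPM in the RBM25 libraries. RBM25 libraries 1 and 2 were above all controls and library 3 was inside their range (0.15 ± 0.049 SE, interval 0.045 to 0.25; edgeR adjusted p = 0.224). Cenpe, a kinesin that moves chromosomes to the spindle equator, had 26.8, 24.6 and 24.7 CPM in controls, then 28.4, 27.4 and 28.7 CPM with RBM25. It was the 1 member of the 36 that was highest in RBM25 library 3 among the RBM25 libraries (0.15 ± 0.057 SE, adjusted p = 0.296). The NDC80 complex, which grips microtubules, was mixed. Its member Ndc80 gave 53.9, 47.7 and 51.5 CPM against 54.0, 57.1 and 49.7 CPM; fold changes were 0.074, 0.027 and -0.069 for Ndc80, Nuf2 and Spc25. Cenpa, the histone variant that marks centromeres, differed by 0.0016 on the log2 scale (interval -0.16 to 0.16).

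The chromosomal passenger complex had negative fold changes in 4 of 4 members, with a median of -0.054. Cdca8, encoding the subunit borealin, was at 78.5, 76.6 and 73.5 CPM in controls and at 74.4, 76.2 and 65.3 CPM with RBM25 (-0.079 ± 0.048 SE, edgeR adjusted p = 0.58). The groups overlapped through RBM25 libraries 1 and 2. The kinase of the complex, Aurkb, had 75.7, 75.3 and 72.8 CPM against 76.8, 73.7 and 64.4 CPM. Incenp, its scaffold, and Birc5, encoding survivin, had log2 fold changes of -0.052 and -0.0042. In RBM25 library 3 the 4 subunits lay 13.2% to 16.9% below the mean of RBM25 libraries 1 and 2.

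Chromosome and spindle genes included Mki67, the proliferation marker Ki-67 that coats mitotic chromosomes. It was at 252, 229 and 234 CPM in the control libraries 1, 2 and 3 and at 269, 249 and 227 CPM in the RBM25 libraries. Its values covered the whole control range and extended past it on both sides (0.060, interval -0.081 to 0.20; edgeR adjusted p = 0.78). Top2a, the topoisomerase that untangles chromosomes, gave 106, 96.0 and 95.9 CPM in controls and 107, 102 and 95.8 CPM with RBM25 (0.034, interval -0.056 to 0.13). For the spindle factors Tpx2 and Hmmr the fold changes were -0.0055 and 0.037. Among genes of the central spindle and of cytokinesis, Anln, encoding the ring protein anillin, had 97.6, 85.6 and 87.0 CPM against 96.8, 85.9 and 76.9 CPM. Racgap1, part of the complex that positions the cleavage furrow, had 169, 166 and 166 CPM against 176, 167 and 149 CPM. The member with the smallest p of that role, Ect2, which activates RhoA at the furrow, gave 43.1, 38.7 and 39.7 CPM against 44.3, 42.0 and 38.2 CPM (0.039, edgeR adjusted p = 0.847). These 3 genes and Prc1, a microtubule bundler, were lowest of all in RBM25 library 3.

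**Figure D3:**
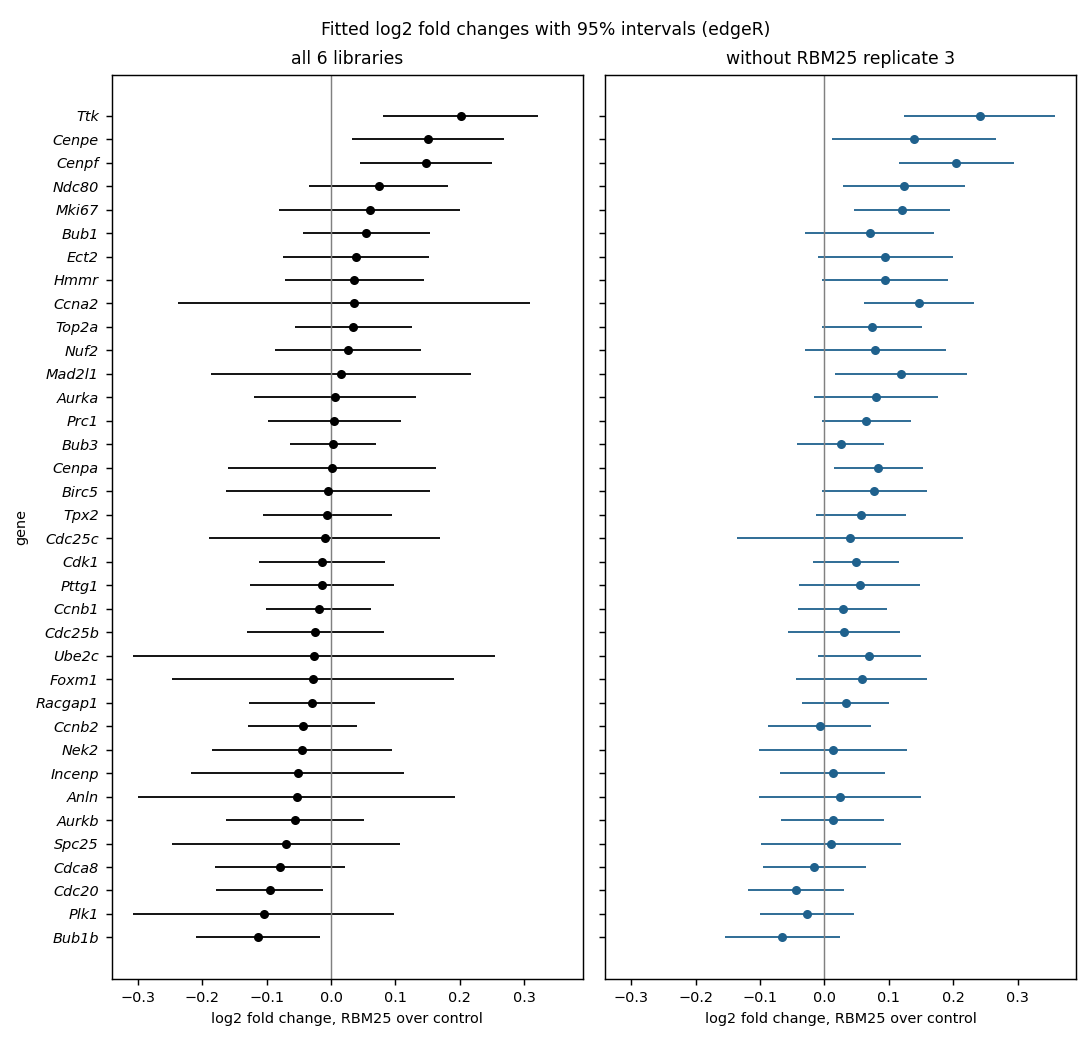
Points are edgeR log2 fold changes of RBM25 over control for the 36 genes, ordered by the fit of all 6 libraries, and lines are 95% intervals. On the left (all libraries) 16 genes lie above 0, from -0.11 to 0.20 in all; on the right (without RBM25 library 3) 31 lie above 0.

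Without RBM25 library 3 the members lay higher against control. In that fit 31 of 36 fold changes were positive and the median was 0.057, beside -0.00063 over all genes. Members called higher were then Ttk (0.24 ± 0.059 SE, edgeR adjusted p = 0.0091), Cenpf (0.20 ± 0.045, adjusted p = 0.0029) and Ccna2 (0.15 ± 0.043, adjusted p = 0.0428), and 0 were called lower. That is 3 of 36, where 2.69% of 13098 genes were called in that fit, 1.50% higher and 1.19% lower. Mki67 came near the threshold (0.12 ± 0.037, adjusted p = 0.0685). RBM25 library 3 had been singled out in earlier results of these data, and most members were lowest there. A shift upward without it was therefore built in, and these calls are descriptions. In 8 members both remaining RBM25 libraries were above all controls and in 2 both were below, beside 15.3% and 14.9% of all genes. Leaving out RBM25 library 1 instead turned the balance round: 29 of 36 fold changes were negative, the median was -0.050, and 0 members were called, as were 0.444% of all genes. At an unadjusted p under 0.05 that fit had 10 members and 10.1% of all genes. A direction for these genes with RBM25 overexpression thus depended on which of its libraries was kept.

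RBM25 library 3 differed from the other 2 in its own group by a similar amount in most members. The difference in log2 CPM from the mean of RBM25 libraries 1 and 2 had a median of -0.19, or 12.3% lower, and ran from -0.38 for Ccna2 to 0.040 for Cenpe. Ordered by size, Ccna2 (23.0% lower) was followed by Mad2l1 (21.4%), Ube2c (19.6%) and Foxm1 (17.6%). At the other end stood Cenpe, Bub1, Bub3 and Ccnb2, the last at 7.58% lower. More than 0.1 below were 33 members and 20.0% of all tested genes; more than 0.2 below were 15 members and 8.84% of all genes. The library and the list had been singled out in earlier results of these data, so these counts are descriptions.

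**Figure D4:**
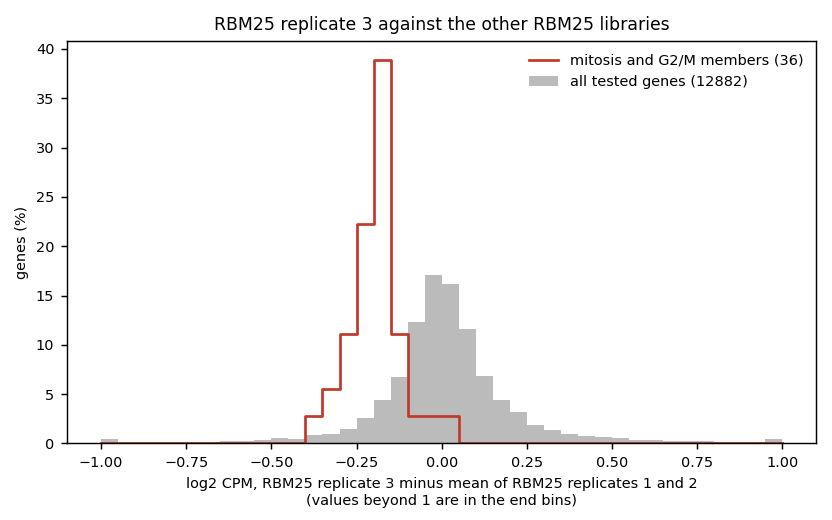
Share of genes (vertical axis, %) by the difference in log2 CPM between RBM25 library 3 and the mean of RBM25 libraries 1 and 2 (horizontal axis, bins of 0.05), for all 12882 tested genes (grey bars) and the 36 members (red line). The members are gathered around -0.19, and all genes around 0.

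The other libraries were not level either. Control library 1 had the highest control value for 32 of 36 members, as it did for 35.8% of all genes, and control library 3 the lowest for 20, as for 32.0% of all genes. In the RBM25 group, library 1 was highest for 29 members, library 2 for 6 and library 3 for 1. RBM25 library 3 was lowest in its group for 35 of 36 members, compared with 36.8% of all genes. The spread was unequal between the groups: the mean of the 36 covered 0.099 log2 units between the highest and lowest control and 0.22 between the highest and lowest RBM25 library. Counts of RBM25 library 3 also stood apart over all genes. Its chi-square per degree of freedom was 6.23 and 4.80 against RBM25 libraries 1 and 2, which differed from each other by 3.22. The controls differed by 3.37 to 3.47.

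Genes of neighbouring steps moved with the members in that library. Of 30 DNA replication genes, 30 were lowest in RBM25 library 3 among the RBM25 libraries, and their mean was 0.17, 0.051 and -0.15 in the RBM25 libraries 1, 2 and 3. For other kinetochore genes the count was 28 of 32, and for other spindle and mitotic entry genes 23 of 25. Condensin, cohesin and separase genes, which shape, hold and part sister chromatids, were lowest there in 16 of 22. The DREAM and MuvB subunits with B-MYB, regulators of the members, were lowest in 8 of 12. APC/C subunits and regulators were lowest in 9 of 17 and highest in 5, with a median difference of -0.035. These shares compare with 36.8% of all genes. The library had been singled out, and the lists chosen, with earlier results of these data known, so these counts are descriptions.

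**Figure D5:**
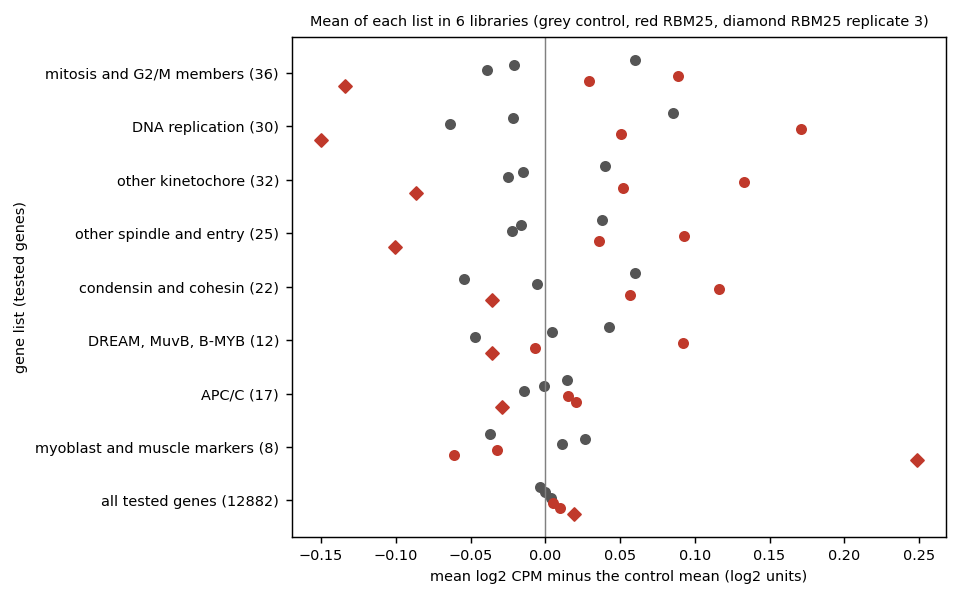
Mean of log2 CPM minus the control mean (horizontal axis, log2 units) over the tested genes of each list, 1 point per library. The RBM25 3 diamond is the leftmost point for the members (-0.13), DNA replication (-0.15), the other kinetochore and the other spindle lists and APC/C. It is not for condensin and cohesin or for DREAM, where a control lies further left. For the 8 myoblast and muscle markers it is at the right, at 0.25.

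Against control, where 0.404% of all tested genes passed the test, 1 of the 138 genes in those lists did. It was Smc4, a condensin subunit, at 78.6, 68.6 and 72.3 CPM in control libraries 1, 2 and 3 and at 85.4, 83.8 and 82.6 CPM in the RBM25 libraries (log2 fold change 0.20 ± 0.042 SE, edgeR adjusted p = 0.0239). It rose in each RBM25 library, and library 3 did not stand apart for it. It was called in 3 of the 6 fits that left out 1 library, with log2 fold changes from 0.16 to 0.26, and not without control library 2, control library 3 or RBM25 library 2 (adjusted p = 0.362, 0.165 and 0.127). Without RBM25 library 3, 7 of the 138 were called, all higher, beside 1.50% of all tested genes called higher and 1.19% lower. The genes with the smallest p of the other lists did not pass: the APC/C subunit gene Cdc27 (0.14, adjusted p = 0.132), the replication polymerase gene Pola1 (0.19, adjusted p = 0.17), the centriole kinase gene Plk4 (0.20, adjusted p = 0.202), Cenpk of the inner kinetochore (0.16, adjusted p = 0.204) and Rbl1, encoding the pocket protein p107 (0.14, adjusted p = 0.449), all by edgeR. Medians of these lists lay between -0.0091 and 0.056. Positive fold changes numbered 16 of 22 for condensin and cohesin, 21 of 30 for DNA replication and 8 of 12 for DREAM. They numbered 21 of 32 for other kinetochore genes, 12 of 25 for other spindle genes and 8 of 17 for APC/C. Of all tested genes 48.8% had a positive value.

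Muscle markers moved the opposite way in RBM25 library 3. Of 8 tested myoblast and muscle markers, 6 were higher there than in both other RBM25 libraries, beside 36.9% of all genes. The markers too were chosen with earlier results known, so that count is a description. Their mean was -0.032, -0.061 and 0.25 in the RBM25 libraries 1, 2 and 3. Myog, encoding the differentiation factor myogenin, was at 20.3, 21.2 and 22.8 CPM in controls and at 14.6, 14.9 and 25.6 CPM with RBM25. Tnnt2, cardiac troponin T, had 112, 105 and 101 CPM against 94.1, 94.6 and 137 CPM. In both genes library 3 was the highest of 6 and the other RBM25 libraries were the lowest, while Myod1 was lowest in library 3, at 54.6 CPM. The summed level of the 9 matched markers was 758 to 767 CPM in controls and 760 to 830 CPM with RBM25. Summed endothelial markers were at 103 to 109 CPM in controls and 101 to 102 CPM with RBM25. Nearly all of that was Eng, with Pecam1, Cdh5 and Kdr under 10 reads in all. Summed epithelial markers were at 779 to 838 CPM in controls and 756 to 903 CPM with RBM25, mostly Krt7. Of the 6 epithelial markers, 4 (Epcam, Cdh1, Krt18 and Krt19) had under 10 reads in all. The part of cell state or of other cells in the shift of the division genes was not tested.

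Gene length also moved with the group difference among the members. Length was read from the ratio of CPM to FPKM, and the Spearman correlation with the log2 fold change was 0.39 over the 36 members and 0.11 over 12875 genes. Cenpf, Mki67 and Cenpe, the longest, had positive fold changes, but Incenp and Cdc25c, the next in length, had negative ones (-0.052 and -0.010). Ube2c, the shortest, was at -0.026 with an interval of -0.31 to 0.26. Signs were mixed among other short members, with Ccna2 and Nuf2 positive and Cdk1 and Ccnb2 negative. Correlation of length with the difference of RBM25 library 3 from libraries 1 and 2 was 0.20 over the members and 0.093 over all genes. These points share the same 6 libraries, and the part of length or RNA quality was not tested.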

How the data were processed

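RNA of H9C2 cells was sequenced as stranded poly(A) libraries in read pairs, per the labels' protocols. The submitters' processing notes name the build mRatBN7.2 of the rat genome, HISAT2 and DESeq2. Sources used here do not say how reads were counted, nor the annotation or strand setting, so genes that overlap or have near-identical copies are uncertain. The deposited counts are raw whole numbers for each gene; the FPKM values deposited by the authors are rounded to 2 decimals. Each library is 1 column, matched by title.

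The test was that of edgeR 4.0.16 (R 4.3.3): filterByExpr with a minimum count of 10, TMM factors (0.996 to 1.01), robust quasi-likelihood F-tests of a model holding group alone, and Benjamini-Hochberg adjustment over 12882 genes, with a threshold of 0.05. The SE is the size of the log2 fold change divided by the square root of F, and 95% intervals use the fit's t quantile. Log2 CPM used a prior count of 2. It was checked on simulated counts. Alternatives were DESeq2 1.42.0, RLE factors, no filter, limma-trend (limma 3.58.1) on log2(FPKM + 0.1) and log2(FPKM + 1), a replicate block, and leaving out each library; no overlap without RBM25 library 3 was added after seeing the data.

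The members, the neighbouring lists and the markers were chosen with earlier results of these data known. Values per library were given for Mki67, Ccnb1, Cdk1, Plk1, Top2a, the members with the largest and smallest fold change and 1 to 3 members of each role by p; Ccna2 and the markers Cdh15, Myod1, Myog and Tnnt2 were picked after their values were seen. Of 204 list symbols, 199 matched the table. Promoter motifs were not analysed here, and no coordinates or sequences are given.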

Additional observations from a re-analysis of the deposited data

How the results depend on the processing

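No result changed sign past the threshold under any alternative that was run, but calls and the balance of signs moved. Positive fold changes numbered 7 of 36 members without RBM25 replicate 1 and 31 without RBM25 replicate 3, beside 16 in the main fit. Without control replicate 1 they numbered 24. Per-library means of the 36 genes, the 35 of 36 lowest in RBM25 library 3 within its group, and the 4 genes without overlap moved by less than the replicate spread or not at all with RLE factors, library size alone, FPKM or no filter. Without RBM25 replicate 3, 10 members had no overlap (8 higher, 2 lower), beside 15.3% of all genes higher and 14.9% lower. When low counts were not filtered, 205 genes (0.988% of all genes), 1 member and 2 of the 138 neighbouring genes were called. On FPKM, limma-trend called 2 genes (pseudocount 0.1) or 1 gene (pseudocount 1), with 0 members and 0 neighbouring genes; at an unadjusted p under 0.05 there were 4 and 3 members, beside 9.60% and 9.74% of all genes.

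Leaving out 1 library in turn gave 5 called genes (without control replicate 2, 0.0380% of all genes) to 352 (without RBM25 replicate 3, 2.69%). Called members numbered 0 to 3 and called neighbouring genes 0 to 7. The median log2 fold change of the members ran from -0.050 to 0.057 in those fits and was 0.020 without control replicate 1. The cause of these shifts was not tested.

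Over all tested genes, deviations from the group mean correlated at 0.0544, -0.0675 and -0.0059 between same-numbered libraries. Not every library correlated best with its own number. The mean of the 36 members, however, fell from library 1 to library 3 in both groups. It was 0.060, -0.021 and -0.039 in the controls and 0.089, 0.029 and -0.13 with RBM25. The labels do not say whether the numbers mark a shared culture or day, and a shared order was not tested. With a replicate block 436 genes, 3 members (Ttk and Cenpf higher, Plk1 lower) and 9 neighbouring genes were called. Of all 12882 genes tested with that block, 2.00% were called higher and 1.38% lower. Counting error at a member's lowest read count gave a coefficient of variation of 1.25% to 5.32%.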
